A study of Mus musculus with 13 samples.

Results

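The regions described here are the Ikzf4 CUT&RUN peaks of embryonic day 14 (E14) mouse retina that were absent at postnatal day 0 (P0). A peak was selected on the peak calls themselves, when not 1 bp of it overlapped a peak of either P0 list. Of the 2472 peaks in the E14 list, 1068 were chosen in this way (43.2%, exact 95% interval 41.2 to 45.2%), and the other 1404 were kept at P0. CUT&RUN maps a protein on chromatin by sequencing the short DNA pieces that an antibody-directed nuclease frees around it. All mice were of the CD1 strain, and the labels name no mutation, transgene or treatment for the Ikzf4 samples. The Ikzf4 libraries came from all cells of whole retinas, 1 library at E14 and 2 at P0, with 1500000 cells each, and nothing says that the P0 libraries came from separate animals. For comparison, 1 Ikzf1 library came from P0 retinal explants electroporated with CAG-Ikzf1-IRES-GFP and cultured for 9 h, from which 50000 GFP-positive cells were sorted, so Ikzf1 there was driven by the CAG promoter and not by its own. A P0 library made with IgG was not analysed here. Positions are on mm9, and no gene, promoter or sequence was assigned to a peak, since no annotation or genome of that build was used.

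Ikzf4 (Eos) and Ikzf1 (Ikaros) are zinc finger transcription factors of 1 family. Their N-terminal fingers bind DNA, and their C-terminal fingers pair family members with each other. Family members are known both to activate and to repress genes, often with chromatin remodelling complexes. Retinal progenitors change what they produce with age. Early progenitors, as at E14, give rise to ganglion cells, horizontal cells, cones and amacrine cells, whereas late progenitors, as around P0, give rise to rods, bipolar cells and Müller glia. E14 and P0 retinas therefore hold different progenitors and different newborn neurons. With whole retinas as the material, a change in the cells present and a change of binding within a cell cannot be told apart.

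The membership rests on calls in 3 libraries, and the deposited values carry the number of fragments behind each call. The peak caller writes a fold enrichment and a p value at each summit, both set by the fragments piled up there and by a local background. Solving both together returned a whole number of summit fragments for 2447 of the 2472 E14 peaks (99.0%) and for all 1068 peaks absent at P0, within 1% of the step between neighbouring whole numbers. The genome-wide background, the lowest level used in a library, was 1.42 fragments for E14, 1.25 for the first P0 replicate and 1.33 for the other. The shortest peak was 170, 178 and 179 bp in the same order. The largest q value in a list was 0.493 to 0.496, and 7 fragments were enough for a call at the genome-wide background in each library. Divided by the shortest width, the background gave E14 about 1.19 and 1.13 times the fragments of P0 replicates 1 and 2, if the same genome size was used throughout. Peak lists hold no marker expression, so the labelled tissue could not be checked against its markers.

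The local background differed between the stages. Of the 2048 E14 values above the genome-wide level and below 60 steps, 1532 (74.8%) were whole multiples of 1 step, 0.495 fragments, within 0.01 of a step. A further 491 (23.97%) were whole multiples of that step times the shortest width over 1000 bp, and 25 (1.22%) were neither. Such steps are those of whole fragments of a scaled control library, counted at the summit or over 1000 bp around it. At places where both P0 lists had a summit within 10 bp, and where either background exceeded 3.5 of its list's steps, the backgrounds of the P0 lists differed by at most 1.05 steps in 121 of 140 cases (86.4%). Between E14 and P0 replicate 1 this held in 4 of 130 cases (3.08%), and between E14 and P0 replicate 2 in 15 of 193 (7.77%). Over all places with summits within 10 bp, whatever the background, the E14 background in steps was the higher in 137 of 143 and in 193 of 200. The medians there were 6.43 against 1.95 fragments and 5.44 against 1.72. At these same places the summit fragments were close, with medians of 31 at E14 and 25 in P0 replicate 1, and of 27 and 26 for P0 replicate 2. Which library served as control for which list is not given in the sources used here, and the part of the control in the absence of a peak at P0 was not tested.

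The E14 peaks absent at P0 had few summit fragments and a low local background. These are not separate traits, since a peak with few fragments is called only over a low background. Their summits held a median of 11 fragments (quartiles 9 and 14, range 7 to 104), against 19 (14 and 27) at the kept peaks. Their local background had a median of 1.68 fragments (quartiles 1.42 and 2.47), against 3.53 (2.47 and 5.94) at the kept peaks. The deposited fold enrichment, which sets the one against the other, was close in both sets, with a median of 4.03 (quartiles 3.58 and 4.62) against 4.17 (3.3 and 5.24). These values come from the library that chose the peaks and are given without a test.

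**Figure D1:**
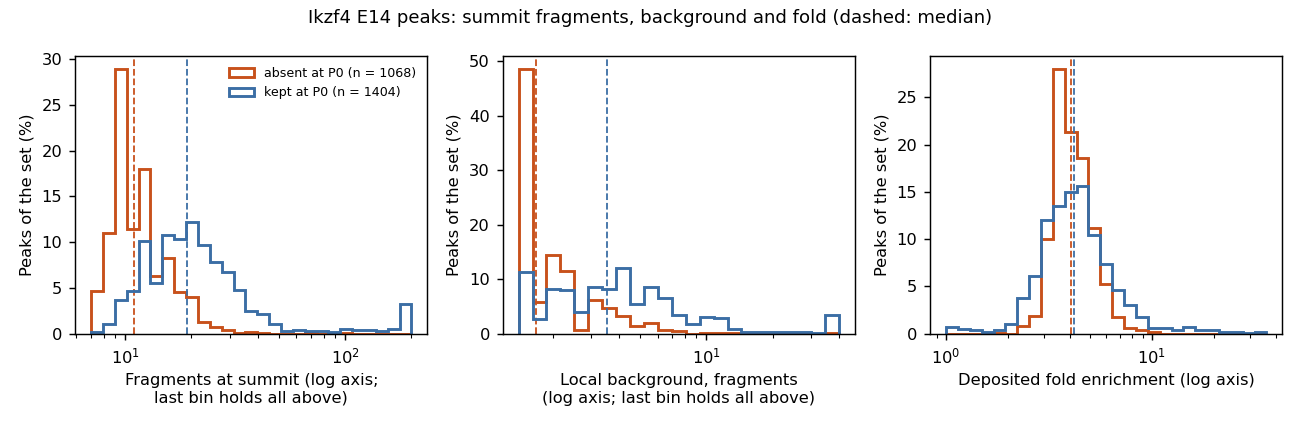
Summit fragments, local background and deposited fold enrichment of the E14 peaks absent at P0 (orange, n = 1068) and kept at P0 (blue, n = 1404), each as the percentage of its set, on log axes, with dashed lines at the medians. The medians lie apart for fragments (11 and 19) and background (1.68 and 3.53) and almost coincide for fold (4.03 and 4.17).

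The background stood at the genome-wide level in 307 of the 1068 peaks (28.7%, exact 95% interval 26.0 to 31.6%), against 66 of the 1404 kept peaks (4.70%, 3.65 to 5.94%). A background above 3 fragments was found at 143 (13.4%) of the absent and 828 (59.0%) of the kept peaks. The absent peaks were also narrower, with a median width of 230 bp (quartiles 192 and 306) against 308 bp (229 and 434). Only 20 of them (1.87%) were wider than 500 bp, compared with 240 kept peaks (17.1%). A q value under 0.05 was reached by 746 (69.9%, 67.0 to 72.6%), where the whole E14 list had 79.5%, and a q value under 0.01 by 501 (46.9%). Kept peaks that recurred in 1 P0 list lay between, with a median of 15 fragments and a background of 2.69, and those in both P0 lists had 22 fragments and a background of 4.45.

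For 278 of the 1068 peaks (26.0%, 23.4 to 28.8%) the summit held at least 14 fragments. There the lower end of the exact 95% Poisson interval, 7.65, lies above the 7 fragments that sufficed at P0 over the genome-wide background. In the whole E14 list this share was 56.9%. For the other absent peaks the interval of the E14 count reached down to the number called at P0. The interval covers counting error only, and each summit had been picked as the highest point of its peak. It was adjusted neither for the larger number of E14 fragments nor for the background, whose median was 2.97 at the 278 peaks. Over a higher background more fragments were needed, as absent peaks with 14 over 4.95 had a −log10 q of only 0.308. The 278 were therefore not shown to exceed what could be called at P0.

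The 10 absent peaks of largest −log10 q and the 10 of largest fold enrichment were 13 different regions, 7 of them in both lists. The largest −log10 q, 34.45, belonged to chromosome 13, 9833559 to 9833733. Its 104 fragments (exact 95% Poisson interval 85.0 to 126) stood in a peak only 175 bp wide, near the shortest width called, over a background of 20.3 (41 control fragments), and its fold was 4.93. The largest fold, 10.1, belonged to chromosome 5, 144288913 to 144289113, where 29 fragments (19.4 to 41.6) stood over a background of 1.98. Both of these peaks are narrow, but the first lies over the highest background of the 13 regions. The background of the second, 1.98, is above the median of 1.68 of all absent peaks.

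Chromosome 5 held a further leading peak at 137462491 to 137462886, which was wider (396 bp) and had 24 fragments (15.4 to 35.7), a background of 1.51 and a fold of 9.94. On chromosome 8, the peak at 124967343 to 124967679 had 25 fragments (16.2 to 36.9) and a fold of 8.73. A second peak there, at 124114187 to 124114358, was 172 bp wide, with the same 25 fragments and a fold of 7.48. Each of these 3 peaks lay more than 10 kb from any P0 peak, at 33.2, 493 and 11.7 kb in the order given.

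On chromosome 7, the peak at 46807587 to 46808160 spanned 574 bp and held 20 fragments (12.2 to 30.9) at the genome-wide background, with a fold of 8.67. On chromosome 18, the peak at 54537532 to 54537820 had the same 20 fragments, background and fold. It lay 2.44 kb from a P0 peak, the shortest such distance among the 13 regions. The other chromosome 18 region, at 83037011 to 83037647, was the widest of the 13, at 637 bp, with 21 fragments and a fold of 8.47. On chromosome 17, the peak at 46817788 to 46818045 had 22 fragments and a fold of 7.72, and the one at 7146219 to 7146398 had 37 fragments over a background of 4.95 and a fold of 6.39. The 3 remaining regions each had 18 fragments. They were chromosome 5, 73647796 to 73648114 (fold 7.84), chromosome 7, 148599944 to 148600267 (fold 7.82), and chromosome 5, 140011419 to 140011755 (fold 7.65). Every one of these 13 regions had at least 18 fragments, above the upper quartile of 14 of all absent peaks.

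Very high pileups were rare among the absent peaks. More than 30 summit fragments were found at 6 of the 1068 absent peaks (0.562%) and at 260 of the 1404 kept peaks (18.5%). Beside the chromosome 13 and chromosome 17 peaks above, the 6 were chromosome 3, 95848560 to 95848794 (73 fragments over a background of 37.1), chromosome 1, 97348526 to 97348776 (44 over 14.4), chromosome 1, 169270403 to 169270653 (36 over 6.93), and chromosome 14, 20110475 to 20110717 (35 over 10.4). All 6 lay over a background well above the genome-wide level, and their folds ran from 1.94 to 6.39. High backgrounds were more frequent among the kept peaks, with values above 10 at 129 of them (9.19%) and at 5 absent peaks (0.468%). The kept peak of largest −log10 q, on chromosome 2 (98506838 to 98507332), had 49981 fragments over 27693.8, a fold of 1.80. The next, on chromosome 17, had 1700 over 367, a fold of 4.63. The following ones, on chromosomes 9, 16 and 11, had 1070, 955 and 803 fragments at folds of 5.83, 6.00 and 5.17. The highest pileup thus came with a low fold, and the others named here had folds above the kept median of 4.17. At the other end, the 5 absent peaks of smallest −log10 q (0.308 to 0.347) had 7 fragments over a background of 1.51 in 3 cases and 14 over 4.95 in 2 cases.

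The share of E14 peaks absent at P0 fell as the summit fragments rose. It was 90.8% (exact 95% interval 85.6 to 94.5%) of the 184 peaks with 7 to 8 fragments and 85.8% (81.8 to 89.3%) of the 360 with 9 to 10. It was 61.9% of the 362 with 11 to 12, 47.6% of the 435 with 13 to 15 and 25.8% of the 457 with 16 to 20. Of the 408 peaks with 21 to 30 fragments 9.07% (6.47 to 12.3%) were absent, and of the 266 with more than 30, 2.26% (0.832 to 4.84%). Ordered by background instead, the share went from 82.3% (78.0 to 86.0%) at the genome-wide level to 3.73% (1.22 to 8.49%) above 10 fragments. Ordered by deposited fold it had no single direction. It was 28.7% in the lowest 20% of folds, 59.7% in the next and 28.9% in the highest.

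Fragments and background rise together, so the share was also taken within ranges of both. Among peaks with 11 to 15 fragments, 64.5% (56.8 to 71.7%) were absent at P0 where the background was at most 1.5, 58.7% (53.5 to 63.8%) where it was 1.5 to 2.5, and 40.6% (34.5 to 47.0%) where it was 2.5 to 5. With 16 to 20 fragments the shares were 33.3, 33.7, 24.8 and 16.9% over the same ranges and above 5. Within a range of fragments a lower background means a higher fold, so in both ranges the group of lowest fold was absent least often. With 21 to 30 fragments the shares had no such order, at 23.3% (11.8 to 38.6%), 5.16% and 9.31% from a background of 1.5 upwards. By −log10 q, the share absent fell from 64.0% among the lowest 20% of the list to 12.3% among the highest 20%. Without P0 replicate 2 the share among the highest 20% was 24.6%, so this value rests on that library.

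**Figure D2:**
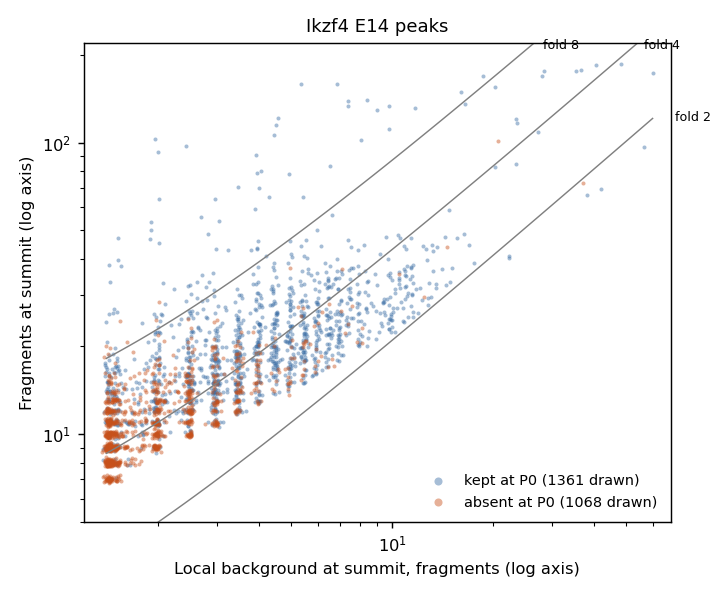
Summit fragments against local background, both on log axes, for the E14 peaks absent (orange, 1068 drawn) and kept at P0 (blue, 1361 drawn, those up to 200 fragments and a background of 60), with slight jitter and grey lines of equal fold enrichment. Absent peaks crowd the corner of few fragments and low background, and both sets spread along the same fold lines.

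The same overlaps that chose the members can be set beside those between the P0 libraries, as a description without a test. The control backgrounds mostly agreed between the P0 lists and not with the E14 list (above). The ranges were also not adjusted for the number of fragments in each library. By the estimate above, E14 had about 1.13 times the fragments of P0 replicate 2 and 1.19 times those of replicate 1. An equal count is then a smaller part of the E14 library. Stage, control and number of fragments cannot be told apart in these shares. Of the E14 peaks with 9 to 10 fragments, 86.7% (exact 95% interval 82.7 to 90.0%) were missing from P0 replicate 2, against 41.0% (36.8 to 45.2%) of the P0 replicate 1 peaks. With 13 to 15 fragments these shares were 52.9% (48.1 to 57.6%) and 15.9% (12.9 to 19.4%), and with 21 to 30 they were 12.01% (9.02 to 15.6%) and 1.82% (0.593 to 4.19%). The E14 share was the higher in all 6 ranges from 7 to 30 fragments. Above 30 fragments the shares were 3.01% (1.31 to 5.84%) for E14 and 6.35% (3.67 to 10.1%) for P0 replicate 1. They rest on 8 and 16 missing peaks, and their intervals overlap.

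Against the list of P0 replicate 1 the shares lay closer together. With 9 to 10 fragments, 93.9% (90.9 to 96.1%) of the E14 peaks and 78.3% (74.9 to 81.4%) of the P0 replicate 2 peaks were missing. With 13 to 15 the shares were 66.2% (61.5 to 70.6%) and 52.9% (49.4 to 56.4%), and with 21 to 30 they were 22.3% (18.4 to 26.7%) and 13.4% (10.6 to 16.7%). They were 94.0% and 88.2% at 7 to 8 fragments, and 5.26% and 3.32% above 30. Restricted to peaks over a background of at most 1.5 fragments, the shares with 9 to 10 fragments were 88.5% and 39.8% against P0 replicate 2, and 94.7% and 73.7% against P0 replicate 1. With 13 to 15 fragments they were 61.2% and 14.1%, and 79.1% and 52.0%. With 21 to 30 fragments only 6 E14 peaks had so low a background, of which 0 were missing from P0 replicate 2, where the P0 replicate 1 share was 1.6%. Above 30 it was 0 of 3 E14 peaks, and 1.54%. Each pair of shares uses the same target list. E14 was measured in 1 library, so the spread between E14 libraries is unknown.

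**Figure D3:**
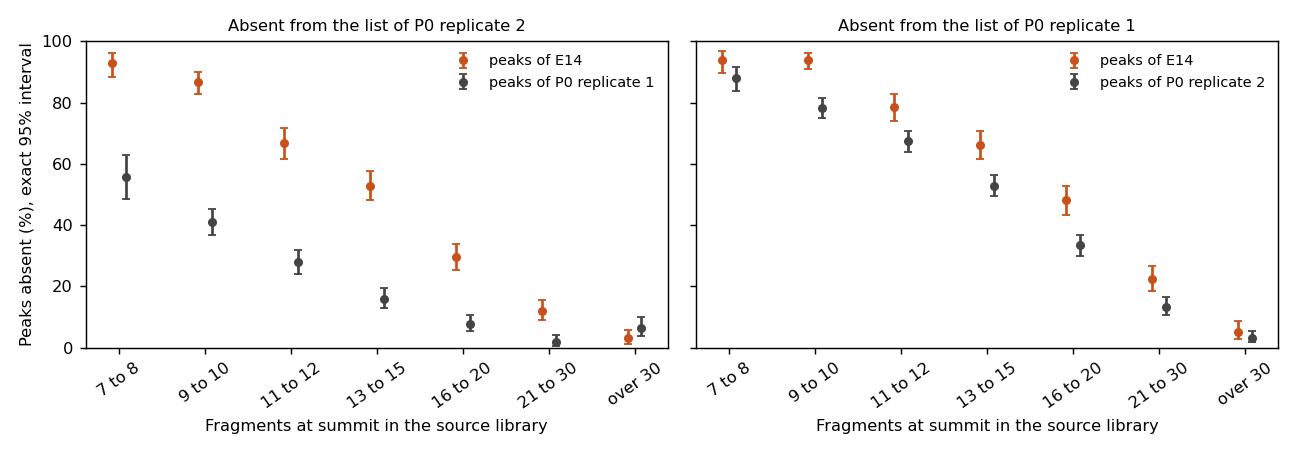
Percentage of peaks missing from the list of P0 replicate 2 (left) or replicate 1 (right) by the number of summit fragments in the source library, for E14 peaks (orange) and for peaks of the other P0 library (grey). Points are shares and bars exact 95% intervals, and the E14 shares lie above the P0 shares from 7 to 30 fragments on both sides. The counts are not adjusted for the number of fragments in each library, which was largest for E14.

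The peaks that the P0 replicates failed to share were also small. Of the 2735 P0 replicate 1 peaks, 613 (22.4%) were missing from replicate 2, where 46.4% of the E14 peaks were missing. Of the 4109 P0 replicate 2 peaks, 1994 (48.5%) were missing from replicate 1, where 57.0% of the E14 peaks were missing. The 613 peaks had a median of 10 fragments, a background of 1.47, a width of 229 bp and a fold of 4.45. The 1994 peaks had 11 fragments, a background of 1.39, a width of 253 bp and a fold of 4.72. At least 14 fragments were found in 15.5% and 29.2% of these, against 26.0% of the E14 peaks absent at P0. The P0 sets were missing from 1 list and the E14 set from both, so the sets are not alike. E14 peaks missing from replicate 2, whatever replicate 1 held, had a median of 11 fragments. Those missing from replicate 1, whatever replicate 2 held, had 12.

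Most absent peaks lay more than 10 kb from any P0 peak. The distance to the nearest one had a median of 89.0 kb (quartiles 28.1 and 262 kb). It was at most 1 kb for 76 peaks (7.12%) and at most 10 kb for 165 (15.4%, exact 95% interval 13.3 to 17.8%). To P0 replicate 1 alone the share within 10 kb was 9.27% (7.60 to 11.2%). With P0 replicate 2 also left out of the choice of members, 1409 peaks were absent and 9.79% of those lay within 10 kb. The peaks within 1 kb of a P0 peak had the same median of 11 fragments as those more than 100 kb away, with folds of 4.13 and 4.03. P0 replicate 1 peaks missing from replicate 2 lay within 10 kb of a replicate 2 peak in 15.2% of cases (12.4 to 18.3%), and the absent E14 peaks did so in 13.9% (11.8 to 16.1%). The median distance to a replicate 2 peak was 117 kb for those replicate 1 peaks and 104 kb for the absent E14 peaks. To a replicate 1 peak it was 166 kb both for replicate 2 peaks missing there and for the absent E14 peaks. The differences between these shares and medians were not tested.

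**Figure D4:**
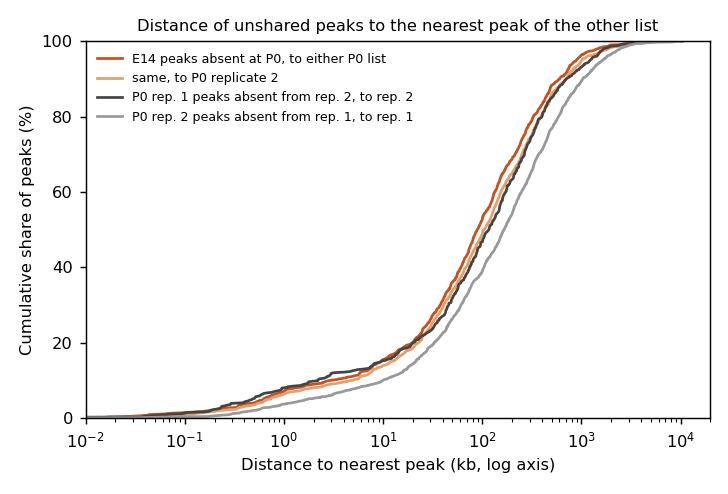
Cumulative percentage of unshared peaks by the distance to the nearest peak of the other list (kb, log axis), for the E14 peaks absent at P0 against either P0 list and against replicate 2, and for the P0 peaks not shared between replicates. The curve of E14 peaks against replicate 2 and that of replicate 1 peaks against replicate 2 run close together, with 13.9% and 15.2% within 10 kb.

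A few members sat at the edge of the rule. The peak at chromosome 12, 32634190 to 32634419, abutted a P0 peak with no base between them and held 18 fragments at a fold of 5.47. The next nearest lay 16 bp from a P0 peak on chromosome 16 (17132174 to 17132441), 17 bp on chromosome 14 (32747211 to 32747390), 24 bp on chromosome 2 (179777268 to 179777464) and 28 bp on chromosome 13 (107941946 to 107942225), with 10 to 12 fragments each. In all, 16 members (1.498%) lay within 100 bp of a P0 peak. Just outside the rule, the kept peak at chromosome X, 162948156 to 162948371, shared 1 bp with a P0 peak and had 13 fragments, and the next 4 shared 10 to 16 bp, with 8 to 16 fragments.

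The members were mostly solitary. Another E14 peak of any kind lay within 10 kb of 117 of them (10.96%, exact 95% interval 9.14 to 12.98%), against 191 kept peaks (13.6%, 11.9 to 15.5%), and another member within 10 kb of 63 (5.90%). These 63 formed 29 groups, of which 2 held more than 2 peaks. The larger group had 5 peaks within 12.1 kb of chromosome 18, from 55145307 to 55157362. Its peaks had 12, 11, 10, 9 and 11 fragments in order along the chromosome, with folds of 5.37, 4.83, 4.54, 4.13 and 4.95, and 4 of the 5 stood at the genome-wide background. Each was weak by itself, and P0 peaks lay between 0.390 and 4.603 kb away, so both stages had peaks in this stretch. The other group had 4 peaks within 14.97 kb of chromosome 4, from 88437117 to 88452090, with 19, 16, 25 and 21 fragments over backgrounds of 3.46 to 5.94.

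The members were spread over the chromosomes as the E14 list was. On the 20 assembled chromosomes with E14 peaks the share absent at P0 ran from 34.1% (30 of 88, exact 95% interval 24.3 to 44.97%) on chromosome 15 to 51.3% (20 of 39, 34.8 to 67.6%) on chromosome X. All 20 intervals held the overall 43.2%. Of the 14 E14 peaks on unplaced contigs, 3 were members. The summit lay at a median of 48.4% of the way along the absent peaks and at 49.5% in the kept ones.

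**Figure D5:**
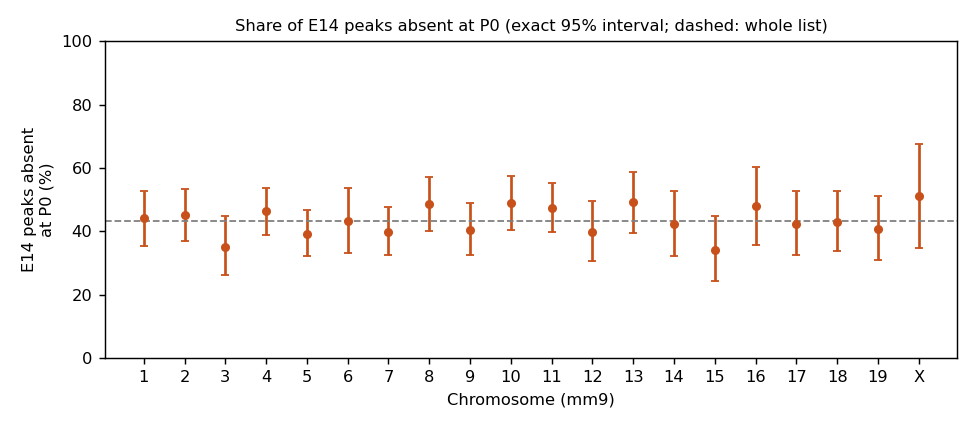
Percentage of E14 peaks absent at P0 on each assembled chromosome, with exact 95% intervals and a dashed line at the overall 43.2%. Every interval crosses the line, from 34.1% on chromosome 15 to 51.3% on chromosome X.

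Misexpressed Ikzf1 was read separately at the same places, and its list played no part in the choice of members. An Ikzf1 peak overlapped 12 of the 1068 absent peaks (1.12%, exact 95% interval 0.582 to 1.95%), where the whole E14 list had 1.33%. Of the kept peaks 21 had one (1.496%, 0.928 to 2.28%). These 21 held 12 to 49981 fragments (median 23) at folds of 1.04 to 22.1 (median 3.27), so they include pileups barely above the control. With Ikzf1 peaks up to 10 kb away the shares were 3.56% (2.53 to 4.85%) and 5.91% (4.74 to 7.28%), the lower for the absent peaks. The Ikzf1 list held 1787 peaks of 1 library, and neither difference was tested.

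The 12 shared places held 8 to 20 fragments (median 12), near the median of 11 of all absent peaks. Their folds ran from 2.82 to 6.04, with a median of 3.495, below the 4.03 of all absent peaks. Of the 12 places, 8 had a q value under 0.05. The strongest lay on chromosome 11, 3166328 to 3166529, with 20 fragments (exact 95% Poisson interval 12.2 to 30.9) over a background of 2.47 and 168 bp shared with the Ikzf1 peak. The widest lay on chromosome 7, 4602140 to 4602655 (516 bp), with 11 fragments, a fold of 4.77 and 322 bp shared, and it was 778 bp from a P0 Ikzf4 peak. On chromosome 14 there were 3, at 119201462 to 119201813 (10 fragments, fold 4.54), 26426336 to 26426611 (11 fragments, fold 4.34) and 45938276 to 45938447 (8 fragments, fold 3.62). Chromosome 7 held 2 more, at 148309035 to 148309221 (14 fragments) and 86973860 to 86974049 (8 fragments). The others were chromosome 8, 88364621 to 88365010 (13 fragments), chromosome 10, 74499850 to 74500056 (14 fragments), chromosome X, 166407777 to 166407988 (17 fragments), chromosome 1, 16609227 to 16609474 (11 fragments), and chromosome 2, 160192770 to 160192953 (13 fragments). None of the 12 was among the 13 leading regions above.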

How the data were processed

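Peaks were called by the authors with MACS2, and reads aligned with Bowtie2, per the submitters' processing notes, which give no versions or options. The deposited Ikzf4 lists hold, per peak, a score (10 times the −log10 q, cut to a whole number), a fold enrichment, which is a ratio, and the −log10 of a p and of a q value. The deposited Ikzf1 list holds a score of 0 throughout, so only its positions were used. The build, mm9, follows from the contig names and the submitters' processing notes.

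Summit fragments and background were solved from fold = (fragments + 1)/(background + 1) and p = P(more than that number) under a Poisson law, as MACS2 defines them, and the solver was tested on simulated data. This step was added after the data were seen, and the members and rules were chosen with earlier results of these data known. Named regions were the members with the 10 largest −log10 q, the 10 largest folds and the 5 smallest −log10 q, those overlapping Ikzf1 peaks, the nearest to a P0 peak and the groups within 10 kb. Those with more than 30 fragments were added after their values were seen. Overlap needed 1 bp. Shares carry exact Clopper-Pearson 95% intervals, which cover counting error only, and PCR copies are not independent molecules. No test was made, since the rule used these calls. The labels do not say whether the P0 libraries came from separate animals. RNA libraries were not used, since no annotation ties genes to mm9 peaks here. Alternatives changed the P0 lists, overlap, thresholds and distances. Python 3.11.15, scipy 1.17.1 and pandas 2.3.3 were used.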

Additional observations from a re-analysis of the deposited data

How the results depend on the processing

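Of 144 values under 14 alternatives, 94 stayed within the 95% interval of the reported value (for counts, within 1.5 times), and 50 moved. With 1 P0 replicate left out, the count of absent peaks was 1147 to 1409, their share of the E14 list 46.4 to 57.0%, the share among the highest 20% of −log10 q 13.5 to 24.6%, among the lowest 20% 67.6 to 75.1%, the share within 10 kb of a P0 peak 9.79 to 13.9%, with q under 0.05 70.3 to 73.2%, the median fragments 11 to 12, background 1.77 to 1.98 and width 230 to 239 bp. With absence from at least 1 P0 list the share was 60.2%, with highest and lowest 20% at 25.9 and 78.7%, q share 73.3%, 12 fragments, background 1.98 and width 239 bp. With equal list lengths these were 50.6% for the share, 17.8 and 70.9% for the highest and lowest 20%, 11.6% within 10 kb and a background of 1.85. With an overlap of at least 50% of the E14 peak the share was 46.5%, and with E14 peaks widened by 500 bp 11.99% lay within 10 kb. With E14 peaks of q under 0.05 the share was 37.9%, the highest 20% at 7.87%, and the medians 12 fragments, fold 4.36 and 240 bp. With q under 0.01 the count was 501, the share 32.1%, the highest and lowest 20% at 6.73 and 49.5%, another E14 peak within 10 kb 8.98%, and the medians 13 fragments, fold 4.70 and 248 bp. With at least 14 fragments, chosen after seeing the data, the count was 278, the share 19.8%, the highest and lowest 20% at 7.09 and 21.4%, another E14 peak within 10 kb 6.12%, q share 90.6%, and the medians 16 fragments, background 2.97, fold 4.51 and 256 bp. At 1 and 100 kb, a P0 peak lay near 7.12 and 52.7% and another E14 peak near 4.78 and 39.0%. The cause of these moves was not tested. The planned gene context, sequence content and RNA change were not run. The share with an Ikzf1 peak stayed within its interval throughout, and 18 to 20 chromosome intervals held the overall share. No paired analysis was possible because no result comes from a fit over numbered samples. The fewest fragments, 7 to 13 per summit, limit most members to an interval that reaches the P0 minimum, and E14 has 1 library.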
